A study of Mus musculus with 6 samples.

Results

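The genes described here are 9 genes of the oligodendrocyte lineage, *Mbp*, *Mobp*, *Cnp*, *Mag*, *Mog*, *Opalin*, *Olig1*, *Sox10*, and *Myrf*, out of the 53715 genes in a table of cerebellar RNA-Seq counts. They were chosen by name, as genes of myelin and of the cells that make it, and each was matched by its gene identifier. The cerebellum came from 3 control and 3 *Slc39a8*-NSKO mice, all male and 4 weeks of age (strain C57BL/6 in the labels, a C57BL/6J background in the study's methods), and RNA-Seq of polyadenylated RNA was used to ask how loss of the metal ion transporter SLC39A8 from neurons alters the cerebellar transcriptome. In *Slc39a8*-NSKO mice, labelled slc39a8-KO in the sample records, a Cre recombinase under the synapsin promoter deletes the floxed *Slc39a8* allele in neurons, so oligodendrocytes were not the intended target of the deletion. The records label the control mice WT, whereas the study describes its controls as *Slc39a8* fl/fl, and the counts cannot tell these apart. The study's text speaks of 3 mice per genotype in one place and of technical triplicates in another, so the p values measure the spread between these 6 samples. Total counts on genes ran from 14431260 to 20844267 per sample, and the 9 genes together took between 0.602% and 0.742% of them. In what follows, a CPM value is a gene's count per 1000000 counts of its library after TMM normalization.

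Oligodendrocytes wrap axons in compacted layers of their own membrane, and this myelin sheath speeds conduction and feeds the axon. In the cerebellum the sheaths lie mostly in the white matter, around Purkinje cell axons and around the fibers that enter the cortex, and much of this myelin is laid down during the first weeks after birth. Precursor cells that carry OLIG1 and SOX10 mature under the control of the transcription factor MYRF, which then switches on the genes of the myelin membrane.

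None of the 9 genes differed between the genotypes by edgeR's quasi-likelihood test (adjusted p between 0.908 and 0.998), and none did by DESeq2 or limma-voom. Over all 16330 genes tested, 0.098% passed an adjusted p of 0.05 (16 genes). Of the 9 log2 fold changes (*Slc39a8*-NSKO minus control), 8 were below 0, with a median of −0.055, and 49.5% of all genes tested were below 0. At an unadjusted p below 0.05 edgeR counted 1 of the 9 genes, *Opalin*, and DESeq2 counted 0. That mark was met by 5.39% of all genes in edgeR and by only 1.96% of 27181 genes in DESeq2. *Opalin* was also the only 1 of the 9 whose CPM values were separate in the 2 genotypes, against 10.3% of all genes. The 6 mice differed from each other in a way that most of the 9 genes shared, with *Slc39a8*-NSKO mouse 3 above and the other two *Slc39a8*-NSKO mice below the mean. The RNA came from whole cerebellum, in which fewer oligodendrocytes and less RNA per oligodendrocyte cannot be told apart.

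The sequence around the start sites is shown for 4 genes of the myelin sheath. Any link between this sequence and the shared movement of the genes from mouse to mouse was not tested. Each window runs from 250 bases before to 50 after the start site in RefSeq's GRCm38.p6 (5′ to 3′ on the gene's strand). RefSeq windows were used for 5 of the 9 genes, *Mobp*, *Mag*, *Cnp*, *Opalin*, and *Mog*. *Mag* has 3 windows, and only that nearest to its annotated start was used, so its other windows are not among the 5. No window was used for *Mbp*, *Olig1*, *Sox10*, or *Myrf*, and the motif shares below leave these genes out. The windows are chr9:120149492-120149791 on the plus strand for *Mobp*, chr7:30914814-30915113 on the minus strand for *Mag*, chr11:100574689-100574988 on the plus strand for *Cnp*, and chr19:41077064-41077363 on the minus strand for *Opalin*. Capitals mark matches to 3 motifs on either strand, ACAAAG, the core that SOX proteins such as SOX10 bind, CTGGCAC, a form of the MYRF motif, and CAGCTG, an E-box of the kind that basic helix-loop-helix factors bind.
Mobp: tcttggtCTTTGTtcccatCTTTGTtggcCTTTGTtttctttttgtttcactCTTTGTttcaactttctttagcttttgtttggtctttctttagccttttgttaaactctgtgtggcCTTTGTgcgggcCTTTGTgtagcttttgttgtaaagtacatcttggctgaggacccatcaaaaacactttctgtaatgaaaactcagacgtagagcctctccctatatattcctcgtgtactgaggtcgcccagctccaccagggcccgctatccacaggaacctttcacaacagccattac
Mag: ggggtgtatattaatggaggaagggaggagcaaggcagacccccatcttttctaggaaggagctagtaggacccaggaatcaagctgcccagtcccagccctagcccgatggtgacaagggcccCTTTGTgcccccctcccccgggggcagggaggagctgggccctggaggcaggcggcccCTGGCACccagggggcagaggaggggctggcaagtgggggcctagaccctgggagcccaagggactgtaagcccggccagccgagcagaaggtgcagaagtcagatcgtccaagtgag
Cnp: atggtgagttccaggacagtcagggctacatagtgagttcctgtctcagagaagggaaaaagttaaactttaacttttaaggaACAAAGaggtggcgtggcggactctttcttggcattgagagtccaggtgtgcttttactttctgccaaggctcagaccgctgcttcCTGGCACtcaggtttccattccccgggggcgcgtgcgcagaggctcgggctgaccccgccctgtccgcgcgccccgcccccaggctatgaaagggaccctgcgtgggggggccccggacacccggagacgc
Opalin: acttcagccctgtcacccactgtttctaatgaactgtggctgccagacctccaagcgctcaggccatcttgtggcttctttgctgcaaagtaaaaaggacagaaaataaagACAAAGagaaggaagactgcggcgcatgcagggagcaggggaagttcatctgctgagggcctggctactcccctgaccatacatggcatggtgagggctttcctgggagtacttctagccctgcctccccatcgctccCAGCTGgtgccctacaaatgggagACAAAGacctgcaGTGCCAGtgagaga

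The SOX core occurred in 4 of the 5 windows and in 18.71% of the 32851 RefSeq promoter windows of the same length. The *Mobp* window held 6 copies, all reading CTTTGT on the gene's strand and lying 120 to 243 bases before the start, and it was the only window of all with 6. The MYRF motif was found in 3 of the 5 windows, those of *Mag*, *Cnp*, and *Opalin*, and in 5.011% of all windows. It lay 68 bases before the start of *Mag* and 81 before that of *Cnp*, and 36 bases after that of *Opalin*. The E-box was found in 1 of the 5, *Opalin*, and in 16.3% of all. The *Mog* window held no match to any of them. The motifs do not overlap each other in these windows, and a match is a run of letters, not a measured binding site.

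*Mbp* encodes myelin basic protein, which holds the cytoplasmic faces of the compacted membrane together, and lies on chromosome 18 of GRCm38 from 82475146 to 82585637 (plus strand). It was counted at 4800, 4329, and 4936 CPM in control mice 1 to 3 and at 4070, 4231, and 5080 CPM in *Slc39a8*-NSKO mice 1 to 3. The lowest and the highest value both belonged to *Slc39a8*-NSKO mice, so the genotypes overlapped. The means were 4688 ± 319 CPM in control and 4460 ± 543 CPM in *Slc39a8*-NSKO mice (SD, n = 3 each), and the log2 fold change was −0.072 (SE 0.078, edgeR adjusted p = 0.994). *Mobp*, which encodes another basic protein of compact myelin, lies on chromosome 9 from 120149707 to 120181484 (plus strand). It had 1186, 1134, and 1246 CPM in control and 1024, 1070, and 1241 CPM in *Slc39a8*-NSKO mice. Mice 1 and 2 of the *Slc39a8*-NSKO group lay below every control mouse, and mouse 3 lay just under the highest control. Its log2 fold change was −0.097 (SE 0.069, edgeR adjusted p = 0.994).

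*Cnp* encodes the enzyme that keeps the cytoplasmic channels of the sheath open, and lies on chromosome 11 from 100574904 to 100591729 (plus strand), where its exons overlap those of *Dnajc7* on the other strand. *Cnp* had 505, 490, and 534 CPM in control and 467, 469, and 521 CPM in *Slc39a8*-NSKO mice. As for *Mobp*, 2 *Slc39a8*-NSKO mice lay below all controls and 1 lay among them. The log2 fold change was −0.070 (SE 0.058, edgeR adjusted p = 0.994). Whether the counting used the strand is not given in the sources used here, so reads of *Dnajc7* could have been counted with *Cnp*.

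*Mag*, *Mog*, and *Opalin* encode proteins of the membrane surface. *Mag*, the adhesion protein of the innermost myelin layer that faces the axon, lies on chromosome 7 from 30899176 to 30914873 (minus strand) and had 208, 212, and 210 CPM in control mice. In *Slc39a8*-NSKO mice it had 190, 195, and 226 CPM, so these mice lay on both sides of a narrow control range. The log2 fold change of *Mag* was −0.045 (SE 0.064, edgeR adjusted p = 0.994). *Mog*, a protein of the outermost sheath surface, lies on chromosome 17 from 37010743 to 37023398 (minus strand). It had 91.9, 92.6, and 95.4 CPM in control and 90.7, 80.5, and 103 CPM in *Slc39a8*-NSKO mice, again on both sides of the controls, with a log2 fold change of −0.028 (SE 0.077, edgeR adjusted p = 0.994).

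*Opalin*, a sialylated membrane protein of central myelin, lies on chromosome 19 from 41061710 to 41077113 (minus strand). Among the 9 genes, only *Opalin* had genotypes that did not overlap in CPM. It had 19.8, 17.8, and 20.5 CPM in control and 14.8, 17.6, and 17.5 CPM in *Slc39a8*-NSKO mice. The gap between the genotypes was narrow, since the lowest control mouse stood close to the 2 highest *Slc39a8*-NSKO mice. On the TPM scale explained below, *Slc39a8*-NSKO mouse 3 (20.1) lay above control mouse 2 (19.6), so there the genotypes overlapped. In CPM the separation held. The means were 19.4 ± 1.405 and 16.6 ± 1.603 CPM (SD, n = 3 each), which put *Slc39a8*-NSKO at 85.8% of control. The log2 fold change was −0.22 (SE 0.099, 95% interval −0.44 to −0.012), and in edgeR's quasi-likelihood test its unadjusted p was 0.0399 and its adjusted p 0.908. The unadjusted p was 0.0879 by DESeq2 and 0.0376 by limma-voom. An exact two-sided permutation test gave p = 0.1, the smallest that 3 mice against 3 allow. *Opalin* was also the member with the fewest reads, 256 to 411 counts per mouse. Over all other settings tried, its log2 fold change lay between −0.28 and −0.14 and its adjusted p was at least 0.641, the smallest change being that without *Slc39a8*-NSKO mouse 1.

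The 3 transcription factors did not pass either. *Olig1*, a basic helix-loop-helix factor of precursors and of maturing cells, lies on chromosome 16 from 91269772 to 91271933 (plus strand), overlapping exons of the noncoding *Gm15966* on the other strand. It had 95.5, 89.5, and 99.9 CPM in control and 86.5, 97.96, and 102 CPM in *Slc39a8*-NSKO mice. These ranges nearly coincided, and *Olig1* was the one member with a log2 fold change above 0 (0.0078, SE 0.069, edgeR adjusted p = 0.998). *Sox10*, which keeps the lineage's identity and acts with MYRF, lies on chromosome 15 from 79154908 to 79165240 (minus strand). It had 43.9, 37.97, and 39.6 CPM in control and 36.7, 34.0, and 46.5 CPM in *Slc39a8*-NSKO mice (log2 fold change −0.055, SE 0.103, edgeR adjusted p = 0.994). Here too the *Slc39a8*-NSKO mice held both the lowest and the highest values. *Myrf*, the factor that starts myelin gene expression, lies on chromosome 19 from 10208272 to 10240748 (minus strand) and had 62.4, 50.7, and 59.95 CPM in control and 54.1, 51.2, and 64.3 CPM in *Slc39a8*-NSKO mice. Its lowest value was that of a control mouse, and its log2 fold change was −0.033 (SE 0.093, edgeR adjusted p = 0.994).

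**Figure D1:**
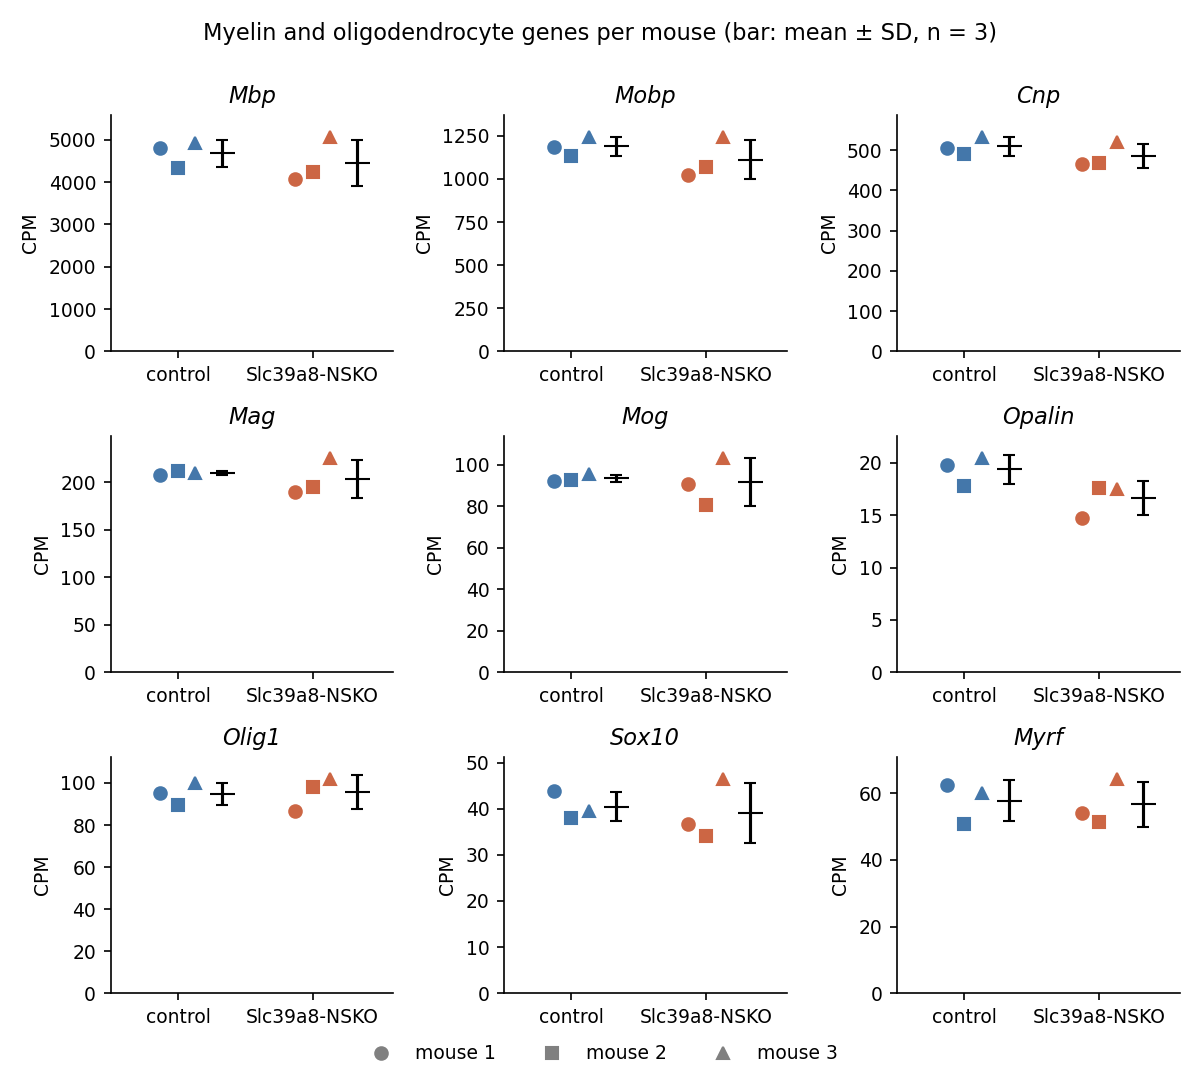
CPM of each of the 9 genes (y axis, linear from 0) in the 3 control (blue) and 3 *Slc39a8*-NSKO (orange) mice, with the mouse number given by the symbol and the mean ± SD of each genotype (n = 3) drawn beside the points. The genotypes overlap for every gene except *Opalin*, and in 6 of the 9 panels the highest point is *Slc39a8*-NSKO mouse 3.

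The intervals show what size of change these counts leave room for. For the 8 genes other than *Opalin*, the 95% interval of the fold (*Slc39a8*-NSKO over control) reached no lower than 0.825, for *Sox10*, and no higher than 1.123, for *Sox10* and *Myrf*. For *Mbp* it ran from 0.847 to 1.07, and for *Opalin* from 0.739 to 0.992. The fold estimated for the targeted gene lay outside all of them. *Slc39a8*, on chromosome 3 from 135825279 to 135888572 (plus strand), had 4.78, 3.20, and 2.83 CPM in control and 1.90, 2.05, and 2.18 CPM in *Slc39a8*-NSKO mice, with every *Slc39a8*-NSKO mouse below every control. Its log2 fold change was −0.83 (SE 0.238), and with an edgeR adjusted p of 0.534 it did not pass the threshold.

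**Figure D2:**
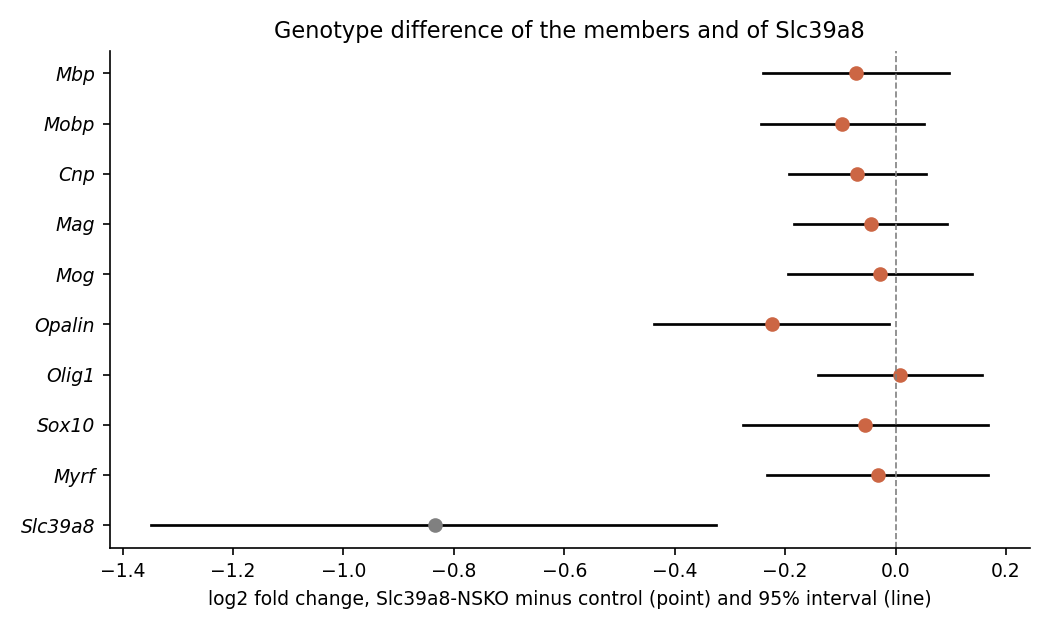
Log2 fold change of the 9 genes and of *Slc39a8* (points) with the 95% interval of the edgeR fit (lines), where 0 means no difference between 3 *Slc39a8*-NSKO and 3 control mice. The interval of *Opalin* (−0.44 to −0.012) lies just below 0, those of the other 8 members cross it, and that of *Slc39a8* (−1.35 to −0.32) lies wholly below 0 and overlaps that of *Opalin*.

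Levels of different genes can be compared only per length, here as TPM, a gene's share of 1000000 transcripts computed from counts per kilobase of annotated exon. On this scale the mean level over the 6 mice fell in the order *Mbp* (1799 TPM), *Mobp* (559), *Cnp* (455), *Mog* (181), *Mag* (169), *Olig1* (147), *Sox10* (43.4), *Myrf* (22.2), and *Opalin* (20.3). *Mbp* stood above 99.8% of all genes tested, and *Opalin* above 57.6%. The ranges of neighbors in this order overlapped for *Mog* and *Mag*, for *Mag* and *Olig1*, and for *Myrf* and *Opalin*. Within single mice, *Mog* was above *Mag* in 5 of 6, *Mag* above *Olig1* in 6 of 6, and *Myrf* above *Opalin* in 5 of 6. With the length of the longest transcript in place of all exons, *Mag* (226 TPM) came before *Mog* (144 TPM), so the order of this pair depends on the length used. The levels moved as well, to 2539 TPM for *Mbp* and 932 TPM for *Mobp*, with *Cnp* at 456 TPM.

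Single mice differed by more than the genotypes did. For each gene the log2 CPM of a mouse was set against that gene's mean over the 6 mice, and the 9 differences were averaged. This shift was 0.065, −0.043, and 0.084 in control mice 1 to 3 and −0.13, −0.10, and 0.12 in *Slc39a8*-NSKO mice 1 to 3. Averaged by genotype it was 0.035 ± 0.068 in control and −0.035 ± 0.14 in *Slc39a8*-NSKO (log2, SD, n = 3 each), so the genotypes differed by less than the SD between *Slc39a8*-NSKO mice. *Slc39a8*-NSKO mouse 1 was below the mean for 9 of 9 genes and the lowest of all mice for 6. *Slc39a8*-NSKO mouse 2 was below the mean for 8. *Slc39a8*-NSKO mouse 3 was above the mean for 8, *Opalin* being the exception, and the highest of all mice for 6.

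The spread was wider among the *Slc39a8*-NSKO mice for each of the 9 genes. The coefficient of variation of *Mag* was 0.909% among control mice against 9.68% among *Slc39a8*-NSKO mice, that of *Mog* 1.94% and 12.5%, and that of *Myrf* 10.7% and 12.2%. The genes share the same 3 mice in each genotype, so this is not 9 separate observations. The SD of log2 CPM within genotypes had a median of 0.126 over the 9 genes. It was 0.119 over all genes tested and 0.0691 over those with a mean of at least 50 CPM.

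**Figure D3:**
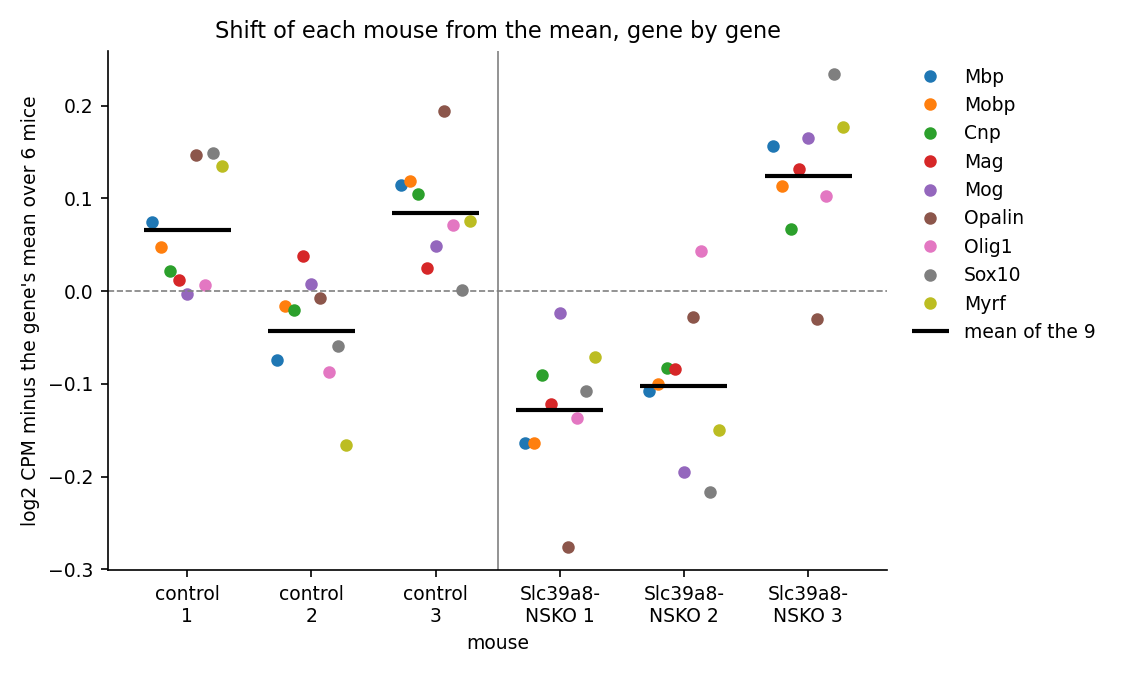
Log2 CPM of each gene minus its mean over the 6 mice (y axis) in each mouse (x axis), one color per gene, with the mean of the 9 genes as a black bar. The bars stand at −0.13 and −0.10 in *Slc39a8*-NSKO mice 1 and 2 and at 0.12 in mouse 3, where *Opalin* alone lies below 0.

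The count of genes at an unadjusted p below 0.05 followed these shifts. Without *Slc39a8*-NSKO mouse 3 it was 5 of 9 (*Mbp*, *Mobp*, *Mag*, *Opalin*, and *Sox10*) instead of 1, with 4.76% of all genes at that mark, and the median log2 fold change was −0.13. It was 0 of 9 when control mouse 1, control mouse 3, or *Slc39a8*-NSKO mouse 1 was left out, where 8.60%, 4.68%, and 5.09% of all genes were at that mark. With any single mouse left out, none of the 9 genes passed an adjusted p of 0.05. The structural genes and the transcription factors were also set against each other within each mouse, with no test. The mean log2 CPM of the 6 structural genes minus that of the 3 factors was 2.33, 2.46, and 2.42 in control mice against 2.34, 2.38, and 2.30 in *Slc39a8*-NSKO mice, so the ranges overlapped.

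Across the 6 mice, all 36 pairs of the 9 genes had a Pearson r above 0, with a median of 0.743. The closest were *Mobp* and *Cnp* (r = 0.976) and *Mbp* and *Mobp* (r = 0.970), all of the compact sheath or its channels. *Sox10* and *Myrf* were at 0.901, and the lowest pair was *Mog* and *Opalin* (r = 0.164). The points of such a correlation are the same 6 libraries for every pair, and the values are given as a description.

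By the same measure, the genes most like the mean of the 9 could be ranked among 14833 genes with at least 1 CPM. The 14833 include the 9 genes themselves, whose own values set that mean. Of the 14833, 70 (0.472%) reached an r of 0.9, as did 2 of 69 other genes of the lineage (2.90%). These were *Ugt8a*, which makes the galactolipids of myelin (r = 0.994), and *Sox8*, a relative of *Sox10* (r = 0.933). *Ugt8a* had 83.1, 77.8, and 84.7 CPM in control and 74.8, 76.4, and 85.5 CPM in *Slc39a8*-NSKO mice, the same pattern of mice as in *Mbp*. Outside all lists used here, the 8 genes most like it were *Tmem192* (r = 0.982), *Pld2* (0.982), *Atp10a* (0.979), *Gm12258* (0.976), *Tmub2* (0.974), *Pccb* (0.969), *Kazn* (0.969), and *6430590A07Rik* (0.967).

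The 69 other lineage genes, in 8 lists, gave a wider view of the same cells. None passed the threshold by edgeR or DESeq2. At an unadjusted p below 0.05 edgeR counted 4 of the 69, 2 in each direction, beside 5.39% of all genes, and the genotypes did not overlap for 4, beside 10.3% of all genes. Their log2 fold changes were above 0 for 26 and below 0 for 43, with a median of −0.029, against 0.0011 for all genes tested.

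*Mal* and *Cldn11*, a raft protein and the tight junction protein of the sheath, had log2 fold changes of −0.047 and −0.071. In that list of 9 membrane proteins, 7 were below 0, and the median was −0.075.

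Among the 8 receptors and gap junction proteins, 7 were below 0 and the median was −0.11. *Gjc3*, which encodes connexin 29 of oligodendrocytes, had 88.6, 92.2, and 94.1 CPM in control and 75.4, 81.0, and 84.5 CPM in *Slc39a8*-NSKO mice. The genotypes did not overlap, and the log2 fold change was −0.19 (edgeR unadjusted p = 0.00723, adjusted p = 0.678). *Gjb1*, the gene of connexin 32, did not overlap either (log2 fold change −0.14, edgeR unadjusted p = 0.105). *Gprc5b*, the most counted of the list, was at −0.017, and *Gpr37* at 0.019.

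The 7 genes of galactolipid and fatty acid synthesis had a median log2 fold change of −0.036, with *Ugt8a* at −0.054, *Fa2h* at −0.027, and *Cers2* at −0.041. Of 9 other transcription factors, 5 were below 0. *St18* (−0.039), *Myt1* (0.014), and *Zfp536* (0.040) were the most counted, and *Tcf7l2*, a Wnt effector of newly differentiating cells, stood at 0.44 (edgeR unadjusted p = 0.0365, adjusted p = 0.908) with only 50 to 96 counts per mouse.

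No marker of the steps of maturation passed the threshold in edgeR. The 7 precursor genes had a median log2 fold change of 0.012 and summed to 130 to 139 CPM in control and 132 to 137 CPM in *Slc39a8*-NSKO mice, with *Cacng4* at −0.030, *Lhfpl3* at −0.0060, and *Vcan* at 0.056. The 7 genes of newly formed oligodendrocytes had a median of 0.0028, with *Bcas1* at −0.048, *Fyn* at 0.063, and *Cemip2* at 0.0028. *Enpp6*, a phosphodiesterase of newly formed cells, was at −0.26 (edgeR unadjusted p = 0.0465, adjusted p = 0.914). Its values were 16.7, 15.0, and 18.3 CPM in control and 11.8, 14.7, and 15.4 CPM in *Slc39a8*-NSKO mice, which overlapped. The 6 inhibitors of differentiation had a median of 0.086, with *Id4* at 0.095, *Id2* at 0.076, and *Lingo1* at 0.098.

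The 16 genes of mature cytoplasm and secreted proteins had a median of −0.025, with *Trf* at 0.0060 and *Tppp* at −0.041. *Enpp2*, which encodes autotaxin, stood highest of the 16. It had 356, 440, and 312 CPM in control and 446, 523, and 373 CPM in *Slc39a8*-NSKO mice (log2 fold change 0.28, edgeR unadjusted p = 0.0374, adjusted p = 0.908). It passed the threshold with no filter on low counts (adjusted p = 2.68e-04) and with the replicate number as a block (adjusted p = 0.0244). *Enpp2* is also strongly expressed in choroid plexus, and all 4 choroid plexus markers were above 0, with a median log2 fold change of 0.38 (*Folr1* 0.96, *Kl* 0.42, *Clic6* 0.35, and *Ttr* 0.31, with none past the threshold in edgeR and *Folr1* lowest at an adjusted p of 0.228). Their summed level was 760 to 1097 CPM in control and 891 to 1538 CPM in *Slc39a8*-NSKO mice. The highest *Enpp2* value within each genotype fell in the mouse with the highest choroid plexus sum. The part of choroid plexus tissue in the *Enpp2* values was not tested.

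**Figure D4:**
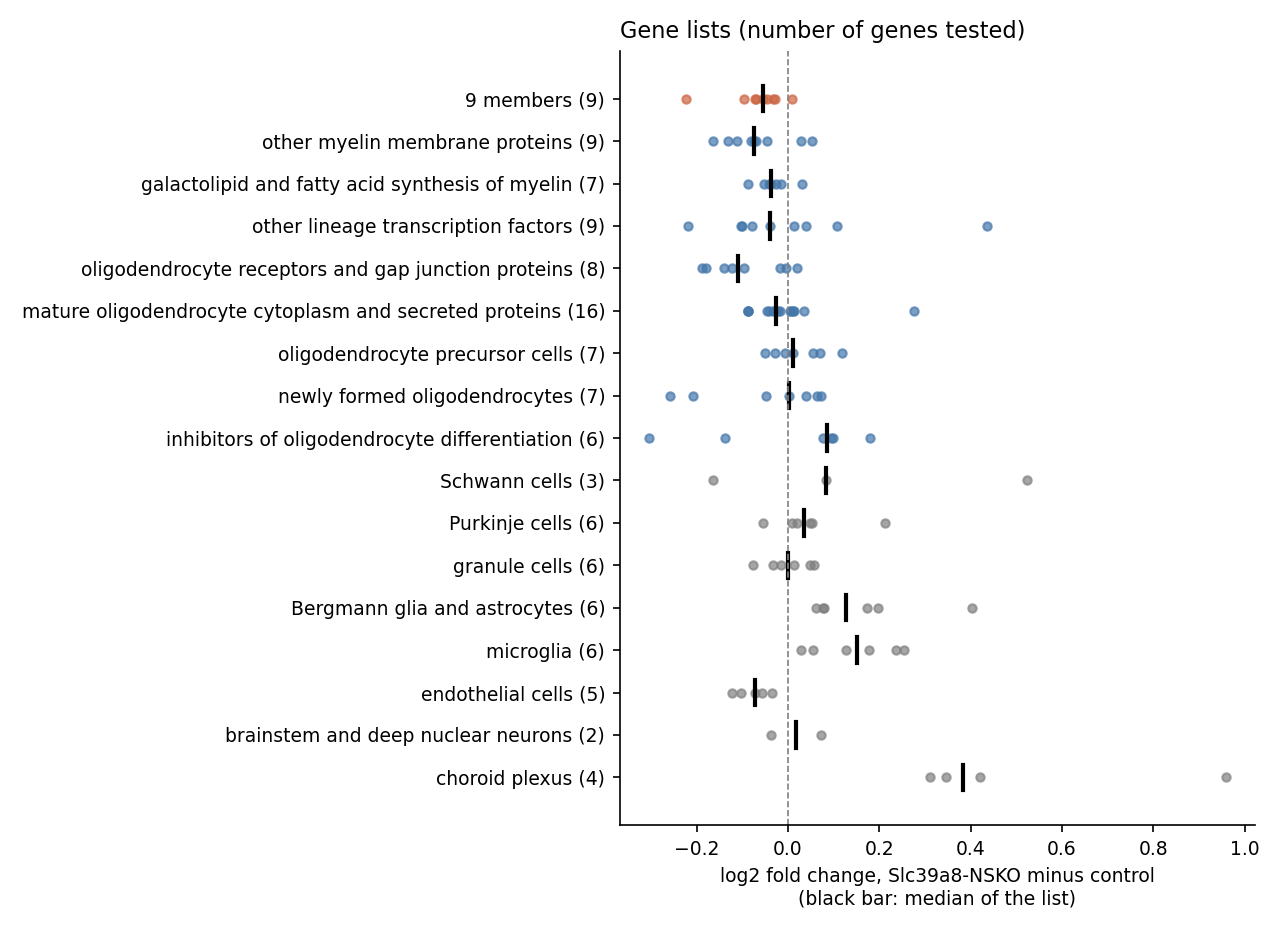
Log2 fold change of each gene tested (points) in the 9 members and the other lists, with the median of each list as a black bar and the number of genes tested after its name. The members and the lists of the lineage center near 0, from −0.11 to 0.086, and the choroid plexus list has the highest median (0.38).

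Markers of other cells show what else the tissue held. Schwann cells, which make the myelin of peripheral nerve and share *Mbp*, *Mag*, and *Sox10*, were scarcely seen. Their 6 genes summed to 2.31 to 3.20 CPM, *Foxd3* had 0 counts in all 6 mice, and *Prx*, *Ncmap*, and *Cldn19* did not pass. Of 6 genes of brainstem and deep nuclear neurons, 2 were counted well enough to test, *Slc6a5* (log2 fold change −0.038) and *Slc17a6* (0.073). The mean shift of this pair was 0.37, −0.31, and −0.15 in control mice against 0.17, −0.11, and 0.038 in *Slc39a8*-NSKO mice, a different order of mice from that of the 9 genes.

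The cerebellar neurons were abundant in every mouse. *Itpr1*, *Car8*, and *Calb1* of Purkinje cells had log2 fold changes of 0.21, 0.052, and 0.0077, and *Cbln3*, *Fat2*, and *Slc17a7* of granule cells had 0.048, −0.078, and −0.016, with none past the threshold (edgeR adjusted p at least 0.885). The 5 endothelial genes were all below 0 (median −0.072), among them *Flt1* at −0.036, *Slco1a4* at −0.072, and *Ly6c1* at −0.058.

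The lists of the other glial cells stood on the opposite side of 0 from the 9 genes. All 6 genes of Bergmann glia and astrocytes were above 0 (median log2 fold change 0.13), and they summed to 1973 to 2283 CPM in control and 2339 to 2394 CPM in *Slc39a8*-NSKO mice. *Gfap*, the intermediate filament of astrocytes, had 222, 161, and 222 CPM in control and 269, 252, and 280 CPM in *Slc39a8*-NSKO mice (log2 fold change 0.40, edgeR unadjusted p = 0.00105, adjusted p = 0.301). *Aqp4* (0.20) and *Hopx* (0.17) did not overlap between the genotypes either, while *Slc1a3* was at 0.079. All 6 microglial genes were above 0 as well (median 0.15), with *Csf1r* at 0.25 (edgeR adjusted p = 0.671) and *C1qa* at 0.054. None of these genes passed the threshold, and the part of cell composition in the levels of the 9 genes was not tested.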

How the data were processed

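Cerebellar RNA of 6 mice, 3 control and 3 *Slc39a8*-NSKO, was sequenced. The authors deposited expected counts per gene and mouse, with no normalization, and the submitters' processing notes name FastQC, STAR, RSEM, DESeq2, and the build mm10. The strand setting and the program versions are not given in the sources used here. Counts were rounded and tested in R 4.3.3 with edgeR 4.0.16 (TMM, filterByExpr, glmQLFit, and glmQLFTest, no covariate) and Benjamini-Hochberg adjustment over 16330 genes, with a threshold of 0.05. All 9 genes passed the filter. The 92 spike-in entries, with at most 5 counts in a mouse, were left out. Single genes were also compared by exact two-sided permutation tests. Log2 CPM used a prior count of 2. Gene positions and lengths came from GENCODE M21 (GRCm38), which held 53620 of the 53715 genes, and promoter windows from RefSeq. Any 2 libraries differed by more than sampling noise (chi-square per degree of freedom at least 3.97).

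The members and lists were chosen with earlier results of these data known. Of each list outside the members, the text names the 3 genes with the highest mean CPM, those with an unadjusted p below 0.05, and those with no counts, and, outside all lists, the 8 genes most like the mean of the members. Some genes of these lists are not reported here. *Gjb1*, *Sox8*, and the pairs singled out were named after their values were seen. The alternatives were DESeq2 1.42.0, limma-voom (limma 3.58.1), RLE, library size only, no filter, at least 10 counts in every mouse, unrounded counts, a replicate block, each mouse left out, a threshold of 0.1, and, for levels per length, the longest transcript. The scripts were tested on simulated counts.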

Additional observations from a re-analysis of the deposited data

How the results depend on the processing

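None of the 9 genes passed an adjusted p of 0.05 under any of 14 other settings, nor 0.1 in the main test. *Mbp*, *Mobp*, *Cnp*, and *Opalin* were below 0 in all 14. Leaving out 1 mouse turned the direction of 5 genes, none of which had passed, and their log2 fold changes then ranged from −0.13 to 0.0048 for *Mag*, −0.12 to 0.057 for *Mog*, −0.13 to 0.034 for *Myrf*, −0.042 to 0.077 for *Olig1*, and −0.20 to 0.036 for *Sox10*. The median of the 9 genes ranged from −0.13, without *Slc39a8*-NSKO mouse 3, to −0.0096, without *Slc39a8*-NSKO mouse 1, and the number below 0 from 6, without control mouse 1 or *Slc39a8*-NSKO mouse 2, to 9.

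Of the other lineage genes, 1, *Enpp2*, passed with no filter on low counts and with the replicate block, and the cause was not tested. With DESeq2, 37 of all genes passed, with no filter 178, and with the block 41, against 16. Without 1 mouse the count ran from 9 (*Slc39a8*-NSKO mouse 2) to 38 (control mouse 1). Whether mice with the same replicate number shared anything besides that number is not given in the sources used here. The deviations of mice with the same number correlated at 0.142, 0.116, and 0.0104, and 4 of 6 mice correlated best with the mouse of their own number. With the replicate block, 0 of the 9 genes passed and 2, *Mobp* and *Opalin*, had an unadjusted p below 0.05, as did 7.44% of all genes in that fit.

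*Opalin* had the fewest reads of the 9 genes, 256 to 411 counts per mouse, and counting error weighs most on its values. The number of mice, 3 per genotype, limits the precision of all 9 intervals.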
